A study of Mus musculus with 69 samples.

Results

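Agrp, Npy, Cartpt, Pmch and Hcrt encode neuropeptides that hypothalamic neurons use to control feeding and arousal, and Lepr, Mc4r and Mc3r encode receptors of the same circuits. The rows of these 8 genes, among 55964 gene IDs in the series, were taken by symbol from RNA sequencing (RNA-seq) tables of hypothalamus, pituitary and ovary of female mice. The mice carried normal Zeb1 (Zeb1_WT, here WT), 1 edited allele (Zeb1_200H, here 200H) or the edited allele on both chromosomes (Zeb1_200M, here 200M). The edit is a set of point mutations in the Zeb1 3′ UTR that removes the sites for the miR-200a and miR-200b microRNA families. The edit is constitutive and present in every tissue, and the mice descended from a pair of targeted embryonic stem cell clones and were on a C57BL/6J background. Young females were virgin and 8 to 12 weeks old, and older females were 28 to 36 weeks old and had been through a breeding trial. All were killed at proestrus, and each library of a tissue came from a different mouse.

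Neurons of the arcuate nucleus that make agouti-related peptide (Agrp) and neuropeptide Y (Npy) drive feeding, and AgRP blocks the melanocortin receptors encoded by Mc4r and Mc3r. Cartpt encodes the CART peptides, which are largely associated with reduced feeding and are made in arcuate, lateral and other hypothalamic neurons. Melanin-concentrating hormone (Pmch) and hypocretin, also called orexin (Hcrt), are made by separate neurons of the lateral hypothalamus that act on feeding, sleep and wakefulness. Lepr encodes the leptin receptor, through which circulating leptin reaches arcuate neurons and lowers feeding. ZEB1 is a zinc finger transcription factor that mostly represses genes with E-box motifs, and the miR-200 family lowers its mRNA in epithelial and endocrine cells.

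The edited sites pair with the seed, bases 2 to 8, of the mature miR-200 microRNAs. One member of each seed family is shown because its sites are what distinguishes 200H and 200M from WT, with the seed in capitals. The sequences are from RefSeq (GRCm38.p6), and both genes lie on the minus strand, miR-200a-3p at chr4:156054911-156054932 and miR-200b-3p at chr4:156055685-156055706.
mmu-miR-200a-3p: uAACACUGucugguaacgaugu
mmu-miR-200b-3p: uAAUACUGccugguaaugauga

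Hypothalamus was represented by 4 libraries of each genotype in the young cohort and by 4 WT, 4 200H and 3 200M libraries in the older cohort. Reads assigned to genes numbered 3321845 to 5143128 per young and 10189605 to 13917738 per older hypothalamus library. Levels are given as counts per 1000000 counts scaled by TMM (CPM). The young libraries were stranded and depleted of ribosomal RNA and the older libraries were unstranded and poly(A)-selected, so age, breeding history, library chemistry and annotation cannot be told apart between cohorts. Zeb1 itself was raised in pituitary, where young libraries held 93.9 to 98.5 CPM in WT, 127 to 136 CPM in 200H and 133 to 145 CPM in 200M (edgeR adjusted p = 0.000895 for 200H and 2.39e-05 for 200M against WT). In hypothalamus Zeb1 was not raised. It stood at 218 to 226 CPM in young WT, 191 to 229 CPM in 200H and 178 to 210.4 CPM in 200M, and at 123 to 143, 126 to 135 and 107 to 119.6 CPM in the older cohort in the same order. Both 200M groups lay below WT, by a log2 fold change of -0.17 ± 0.072 (SE) in young and -0.26 ± 0.086 in older mice (edgeR adjusted p = 0.871 and 0.161).

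No member passed the test for a genotype difference in hypothalamus of either cohort. A gene was called at an adjusted p under 0.05 in edgeR's quasi-likelihood test over all genes of the pair of genotypes, and this gave 0 of 7 members tested in each young comparison and 0 of 8 in each older one. Calls were rare among all genes as well, at 0.02% of 14988 genes for young 200M against WT, 0.0202% of 14877 for young 200H against WT and 0% of 14812 for young 200M against 200H. The shares in the older cohort were 0.00622% of 16067 genes for 200M against WT, 0% of 15910 for 200H against WT and 0% of 16156 for 200M against 200H. Some of these calls fell in a list of 7 pituitary genes, named with Cartpt below. In young 200M against WT 1 of that list was raised and 1 lowered, of 3 genes called. In young 200H against WT 1 was lowered, of 3 called, and in older 200M against WT the 1 gene called was of that list. At an unadjusted p under 0.05 the members numbered 1, 4 and 0 in the young comparisons and 0, 3 and 3 in the older ones, in the same order, and all genes numbered 847, 585 and 682 in young and 2904, 445 and 3144 in older hypothalamus. The call rate in the older cohort depended on the tool, since DESeq2 called 619 and 668 genes for 200M against WT and against 200H where edgeR called 1 and 0. Among the members DESeq2 called Npy in older 200M against 200H and no other in hypothalamus. Some members are described below as lying wholly above or below another genotype. The share of all genes that do so was not counted, so such separation describes the libraries and is not a result about the members.

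**Figure D1:**
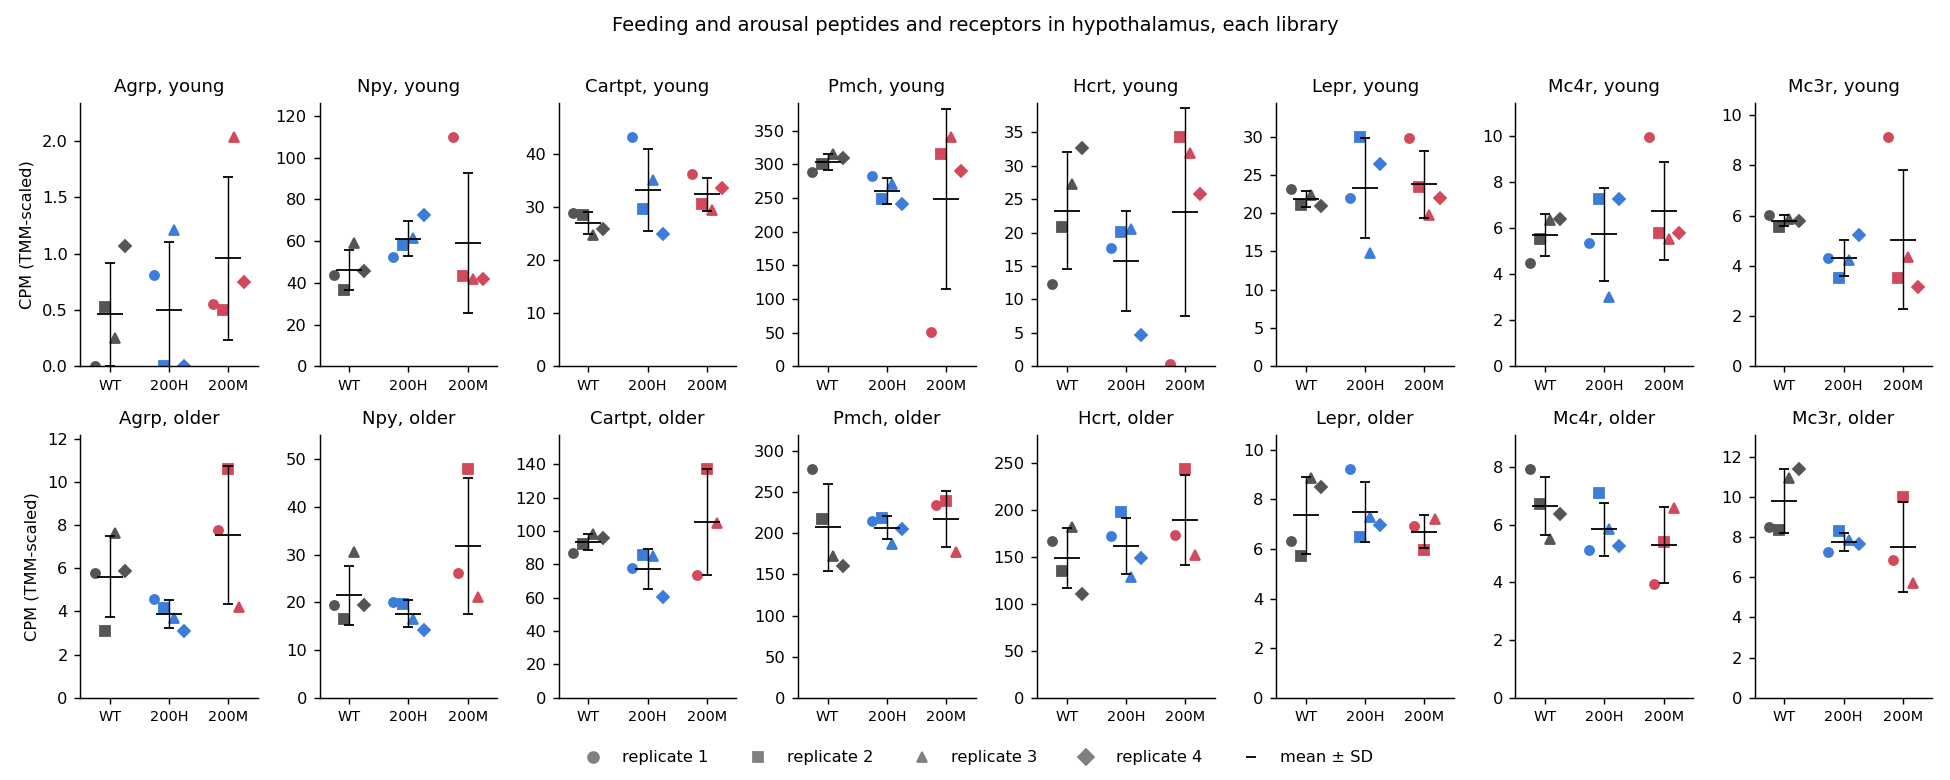
Level of the 8 genes in each hypothalamus library, in TMM-scaled CPM, by genotype and cohort, with replicate number as marker shape and the mean ± SD in black. Young 200M replicate 1 stands at 50.3 CPM for Pmch and 0.276 CPM for Hcrt and is the highest young library for Npy, Mc4r and Mc3r, while older 200M replicate 2 is the highest older library for Agrp, Npy, Cartpt and Hcrt.

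Pmch, at chr10:88091072-88092375 on GRCm38, had the highest level per kilobase of the members in both cohorts. Its span overlaps Parpbp on the other strand. Shared exons were not examined, so older counts, made without strand, may be uncertain where the models overlap. Its young levels were 289, 301, 315 and 309.8 CPM in WT, 282, 249, 271 and 241 CPM in 200H, and 50.3, 315, 339.9 and 289.7 CPM in 200M, for replicates 1 to 4. All 4 200H libraries were below all 4 WT libraries, and 200M replicate 1, with 182 counts, was far below every other library. The 200H difference from WT was small, a log2 fold change of -0.22 ± 0.058 (SE), and did not pass the test over all genes (edgeR adjusted p = 0.664). Between the same groups Mog was lower in 200H, at 36.9 to 42.7 CPM beside 43.8 to 57.8 CPM in WT, and a sum of 5 other lateral hypothalamic genes (Lhx9, Nts, Tacr3, Pdyn and Gal) was higher, at 82.4 to 86.8 CPM beside 73.8 to 79.1. Their part in the Pmch difference was not tested. Young 200M against WT gave -0.29 with a 95% interval from -0.84 to 0.27, which turned to 0.048 without 200M replicate 1.

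In older hypothalamus Pmch read 278, 217, 173 and 160.5 CPM in WT, 215, 219, 187 and 205 CPM in 200H, and 235, 239 and 178 CPM in 200M. The 3 genotypes overlapped throughout. The log2 fold changes against WT were 0.079 for 200M, with a 95% interval from -0.29 to 0.45, and -0.0037 for 200H, with an interval from -0.30 to 0.30. Both intervals allow differences of either sign.

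Hcrt, at chr11:100761069-100762931, had the widest spread of any member in young hypothalamus. Young levels were 12.4, 20.8, 27.3 and 32.7 CPM in WT, 17.7, 20.1, 20.5 and 4.64 CPM in 200H, and 0.276, 34.2, 31.9 and 25.8 CPM in 200M. The value of 200M replicate 1 was a single count, for which an exact Poisson interval of 95%, covering counting error only, runs from 0.0070 to 1.54 CPM. The other 3 200M libraries held 110 to 138 counts. The library labelled 200M replicate 1 thus held little of either peptide, and in bulk tissue fewer cells of a type and less RNA per cell cannot be told apart. For Hcrt, young 200H against WT was -0.57 ± 0.24 (SE) on the log2 scale, with overlap (edgeR adjusted p = 0.998). Older levels were 167, 135, 182 and 111 CPM in WT, 172, 198, 129 and 149 CPM in 200H, and 173, 244 and 152 CPM in 200M, with overlap between all genotypes. Older 200M against WT was 0.36 ± 0.18 (SE) on the log2 scale (edgeR adjusted p = 0.318), and 0.12 without 200M replicate 2.

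The same young library differed in other genes of the hypothalamus. Trh, the thyrotropin-releasing hormone gene, was at 10.8 CPM in 200M replicate 1 and at 33.4 to 59.9 CPM in the other young libraries, and Htr2c, a serotonin receptor through which feeding is reduced, was at 39.8 against 76.9 to 110.8 CPM. The summed CPM of 5 arcuate genes (Pomc, Kiss1, Tac2, Ghrh and Tbx3) was 134 there and 55.3 to 80.1 in the others. The summed CPM of the 5 lateral hypothalamic genes named with Pmch was also highest there, at 113 beside 73.8 to 92.1, the opposite way to Pmch and Hcrt. Of that sum Pdyn held 87.8 CPM, beside 35.2 to 47.0 CPM in the others, while Nts and Tacr3, at 6.08 and 9.39 CPM, were at their lowest. The myelin genes Mbp, Mag, Mobp and Mog were each lowest in that library, with Mog at 25.4 CPM beside 36.9 to 57.8 CPM in the others. The part of these differences in the member values was not tested.

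Npy, at chr6:49822710-49829507, was measured at 43.6, 36.4, 59.1 and 45.5 CPM in young WT, 52.4, 58.3, 61.5 and 72.5 CPM in 200H, and 109.6, 43.0, 41.8 and 42.0 CPM in 200M. In 200M replicate 1 stood far above 3 libraries that lay close together. Young 200H against WT had a log2 fold change of 0.41 ± 0.12 (SE), with 2 of 4 libraries above every WT library, and did not pass the test (edgeR adjusted p = 0.843). Young 200M against WT was 0.34 ± 0.22 (SE), and -0.13 once replicate 1 was left out.

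Older Npy levels were 19.5, 16.4, 30.6 and 19.4 CPM in WT, 20.2, 19.7, 16.5 and 14.1 CPM in 200H, and 26.2, 47.9 and 21.1 CPM in 200M. Every 200M library was above every 200H library, while both overlapped WT. The log2 fold change of 200M against 200H was 0.86 ± 0.24 (SE), with an edgeR adjusted p of 0.145 and a DESeq2 adjusted p of 0.0156. Without 200M replicate 2 it was 0.42 (edgeR adjusted p = 0.314). That library also held a summed CPM of 239 over 4 of the 5 arcuate genes, beside 107 to 159.95 in the other older libraries, and the part of this in the Npy and Agrp values was not tested. Against WT the older 200M group differed by 0.57 ± 0.27 (edgeR adjusted p = 0.282), and by 0.13 without the same replicate.

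Agrp was close to the detection limit in young hypothalamus, where 30 counts were found in the 12 libraries together and 3 libraries held none. A count of 0 allows up to 0.583 to 0.903 CPM at these depths, counting error only, and the highest library reached 2.03 CPM, from 7 counts, so Agrp did not pass the filter for the young tests. In older hypothalamus Agrp read 5.78, 3.09, 7.64 and 5.89 CPM in WT, 4.57, 4.15, 3.68 and 3.08 CPM in 200H, and 7.77, 10.6 and 4.21 CPM in 200M. The 200M and 200H groups overlapped only between 4.21 and 4.57 CPM. The log2 fold change of 200M against 200H was 0.96 ± 0.28 (SE) (edgeR adjusted p = 0.145), and 0.60 without 200M replicate 2. The span of the Agrp gene model, at chr8:105566698-105637393, overlaps 7 other annotated genes, Ctcf and Ripor1 among them. Shared exons were not examined, so its counts may be uncertain, in the unstranded older libraries above all.

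Cartpt, at chr13:99898489-99901091, was measured at 28.9, 28.5, 24.7 and 25.9 CPM in young WT, 43.0, 29.6, 35.0 and 25.0 CPM in 200H, and 36.2, 30.5, 29.3 and 33.4 CPM in 200M. The young 200M libraries all lay above the WT libraries, by a log2 fold change of 0.26 ± 0.13 (SE) that did not pass the test (edgeR adjusted p = 0.871). Young 200H against WT was 0.30 ± 0.14 (SE), with overlap (edgeR adjusted p = 0.998), opposite in sign to older 200H below. Older levels were 86.9, 92.5, 98.3 and 95.6 CPM in WT, 77.8, 85.6, 84.9 and 60.2 CPM in 200H, and 73.7, 137 and 105 CPM in 200M. All older 200H libraries lay below WT, at -0.28 ± 0.098 (SE) (edgeR adjusted p = 1.00), whereas the 200M libraries fell on both sides of WT. The summed CPM of 7 pituitary genes (Gh, Prl, Lhb, Fshb, Tshb, Gnrhr and Pou1f1) differed between the same older groups, at 2.45 to 7.18 in WT, 7.03 to 67.6 in 200H and 17.8 to 22.0 in 200M. In young hypothalamus that sum was 7.38 to 32.3 in WT, 0 to 11.1 in 200H and 8.56 to 20.4 in 200M. Its part in the member values was not tested.

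Among the receptors, Lepr, at chr4:101717404-101815352, overlapped between genotypes in both cohorts. It was measured at 23.1, 21.1, 22.4 and 20.9 CPM in young WT, 22.0, 29.9, 14.8 and 26.4 CPM in 200H, and 29.8, 23.4, 19.7 and 22.0 CPM in 200M. Older values were lower, at 5.72 to 8.87 CPM in WT, 6.47 to 9.23 CPM in 200H and 5.96 to 7.21 CPM in 200M. For 200M relative to WT the 95% intervals of the log2 fold change ran from -0.19 to 0.42 in young and from -0.54 to 0.28 in older hypothalamus.

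Mc4r, on chromosome 18, the receptor through which melanocortins reduce feeding, also overlapped throughout. Young levels were 4.47, 5.54, 6.37 and 6.41 CPM in WT, 5.38, 7.29, 3.02 and 7.25 CPM in 200H, and 9.94, 5.79, 5.52 and 5.79 CPM in 200M, and older levels were 5.50 to 7.93, 5.11 to 7.11 and 3.93 to 6.57 CPM in the same order. For 200M relative to WT the log2 fold change was 0.23 with a 95% interval from -0.33 to 0.79 in young and -0.30 with an interval from -0.74 to 0.14 in older mice.

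Mc3r, at chr2:172248492-172251114, encodes the other brain melanocortin receptor. It read 6.05, 5.54, 5.86 and 5.77 CPM in young WT, 4.30, 3.52, 4.22 and 5.22 CPM in 200H, and 9.11, 3.52, 4.35 and 3.18 CPM in 200M. All 200H libraries and 3 of 4 200M libraries were below WT, and 200M replicate 1 was above it. Older levels were 8.49, 8.36, 10.9 and 11.4 CPM in WT, 7.26, 8.31, 7.86 and 7.64 CPM in 200H, and 6.83, 10.0 and 5.71 CPM in 200M, with all 200H libraries below WT. The summed CPM of 3 ventromedial genes (Nr5a1, Fezf1 and Adcyap1) was also lower in older 200H, at 94.2 to 125.6, than in WT, at 131 to 138.8, and its part in the Mc3r and Cartpt differences was not tested. The library with the lowest level, 200M replicate 3, had a summed CPM of 7 cortex and striatum genes of 223, beside 84.4 to 147 in the other older libraries, and its part in the value was not tested. The log2 fold changes of 200H against WT were -0.43 ± 0.29 (SE) in young and -0.34 ± 0.14 in older mice (edgeR adjusted p = 0.998 and 1.00). The young value rested on 14 to 27 counts per library. Young 200M against WT was -0.23, and -0.67 without 200M replicate 1 (edgeR adjusted p = 0.936 and 0.545).

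**Figure D2:**
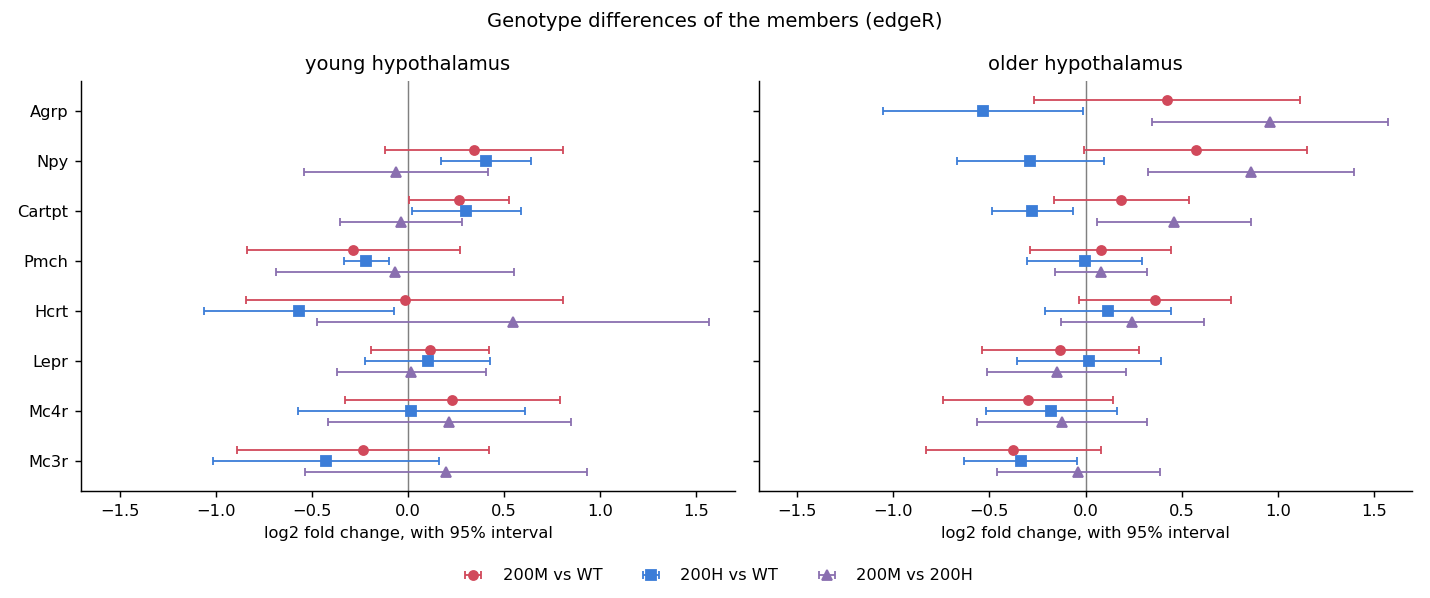
Log2 fold change of each member tested in hypothalamus, with its 95% interval from edgeR, for the 3 pairs of genotypes in young (left) and older (right) mice. Most intervals cross 0, and those that do not, such as young Pmch in 200H against WT at -0.22 and older Npy and Agrp in 200M against 200H at 0.86 and 0.96, did not pass the test over all genes.

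The 200M effect did not pass a test for a difference between cohorts for any member. In the interaction of genotype and cohort 0 of 8 members were called by edgeR, 0 at an unadjusted p under 0.05 and 0 by DESeq2, with 0.154% of 16831 genes called. The difference in log2 fold change, older minus young, was 0.37 for Pmch with a 95% interval from -0.49 to 1.23 and 0.23 for Npy with an interval from -0.60 to 1.07. Intervals this wide do not show that the cohorts were alike.

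Other genes of the same pathways were described from 5 lists of 33 genes in all, which held other feeding and arousal peptides, receptors, leptin signalling genes, peptide-processing genes and transcription factors. None of the 31 tested in young or the 33 tested in older hypothalamus was called by edgeR in any of the 6 comparisons. The numbers at an unadjusted p under 0.05 were 3, 2 and 3 in young and 9, 9 and 8 in older mice, for 200M against WT, 200H against WT and 200M against 200H. The shares of all genes under the same threshold were 5.65%, 3.93% and 4.6% in young mice, in the same order. In older mice they were 18.1%, 2.8% and 19.5%. The higher rate of the lists in older 200H against WT was not tested. The median log2 fold change of the 33 genes in older 200M against WT was -0.065, beside 0.015 for all genes tested. The smallest adjusted p over the 6 comparisons, 0.112, belonged to Ghsr, the ghrelin receptor gene, in older 200M against WT, at -0.67 ± 0.16 (SE). Ghsr is named after its value was seen.

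The order of the members by level per kilobase of merged exon differed between cohorts. In young hypothalamus the mean CPM per kilobase was 362 for Pmch, 98.1 for Npy, 27.6 for Hcrt, 24.1 for Cartpt, 3.26 for Lepr, 2.16 for Mc4r, 1.93 for Mc3r and 0.633 for Agrp. In the older cohort it was 279.8 for Pmch, 219.9 for Hcrt, 71.0 for Cartpt, 40.4 for Npy, 5.43 for Agrp, 3.22 for Mc3r, 2.13 for Mc4r and 1.02 for Lepr. Pmch and Npy in young mice overlapped only through 200M replicate 1, Hcrt and Cartpt overlapped, and so did Lepr, Mc4r, Mc3r and Agrp each with its neighbour in that order. In older mice the ranges of each gene overlapped that of its neighbour except for Hcrt with Cartpt and Npy with Agrp, and for Lepr, whose highest value of 1.31 CPM per kilobase was below the lowest of Mc4r at 1.40.

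Most of the peptides, Hcrt above all, had a larger spread between libraries of the same genotype than most genes of similar level. The SD of log2(CPM + 0.5) within genotype in young hypothalamus was 1.67 for Hcrt, 0.76 for Pmch and 0.44 for Npy, and 99.98%, 99.7% and 99.5% of tested genes within a factor of 2 of their mean level had a smaller SD. Cartpt was less unusual, with an SD of 0.22 that exceeded 65.3% of such genes, and the receptors Lepr, Mc4r and Mc3r exceeded 83.9%, 62.8% and 47.7%. Without 200M replicate 1 the SD of Pmch was 0.094, larger than that of 60.4% of genes at its level, and that of Npy was 0.21, whereas Hcrt stayed at 0.71 and above 99.7% of genes at its level. In older hypothalamus the 5 peptides had SDs of 0.26 to 0.46, each above 94.6% or more of genes at its level. The older receptors had SDs of 0.23 to 0.24, above 60.1% to 71.6% of such genes. These shares describe the libraries and are not tests, since genes of 1 library are not independent.

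**Figure D3:**
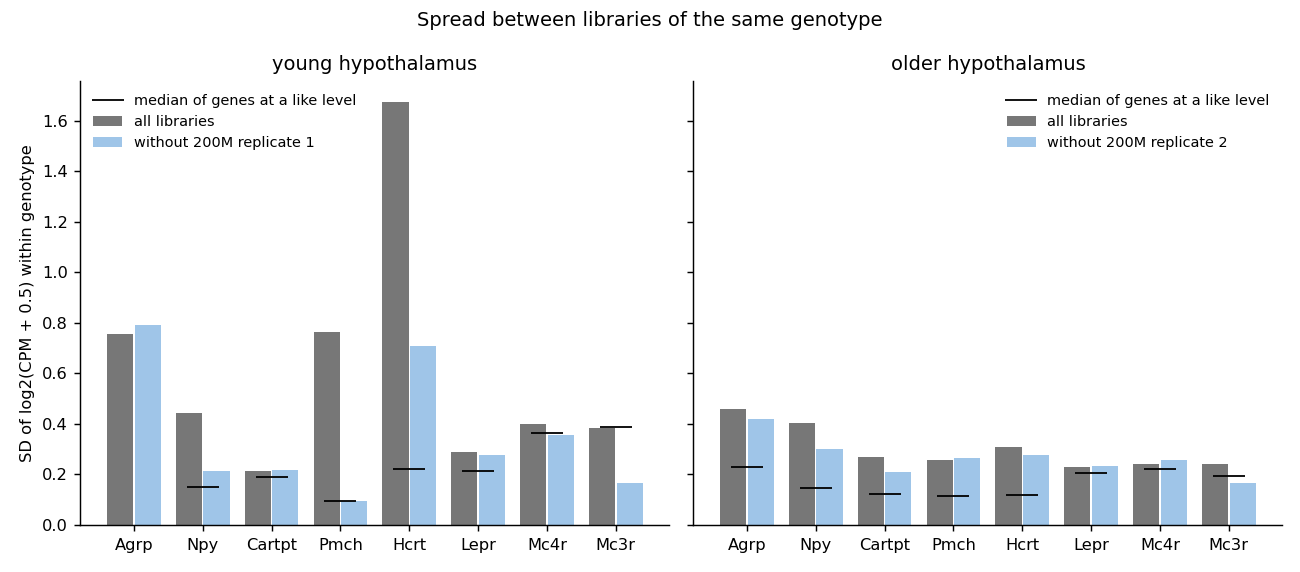
SD of log2(CPM + 0.5) between hypothalamus libraries of the same genotype for each member, with all libraries (grey) and without 200M replicate 1 in young or replicate 2 in older mice (blue), and the median of tested genes within a factor of 2 of the same level (black line, none for young Agrp). Young Pmch falls from 0.76 to 0.094 without that library, and young Hcrt from 1.67 to 0.71.

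Pairs of peptides were compared across libraries after the genotype means of log2(CPM + 0.5) were subtracted, as 8 relations tested by permuting libraries within genotype. Pmch and Hcrt, from separate neurons of the lateral hypothalamus, were correlated in young mice, with Pearson's r = 0.94 (exact permutation test, two-sided, p = 0.0034, adjusted p = 0.0272, n = 12) and Spearman's rho = 0.88 (exact permutation p = 0.0158, adjusted p = 0.0634). Leaving out 200M replicates 1 and 3, the 2 libraries farthest from the median of Pmch, gave r = 0.72 (exact permutation p = 0.0295, adjusted p = 0.118), and the call was lost. Without 200M replicate 1 alone r was 0.63 (exact permutation, adjusted p = 0.0988), and without WT replicate 1, WT replicate 2, 200H replicate 4 or 200M replicate 4, each alone, r stayed at 0.94 to 0.98 while the adjusted p was 0.0625 to 0.0671. In older mice the same pair had r = 0.53 and rho = 0.57 (exact permutation p = 0.175 and 0.143, n = 11). Agrp and Npy, which are made by the same arcuate neurons, had r = 0.88 and rho = 0.84 in older mice (exact permutation p = 0.0168 and 0.0116, adjusted p = 0.0671 and 0.0634, n = 11), and 0.86 without the 2 libraries farthest from the median of Agrp. In young mice, where Agrp is near the detection limit, r was -0.29 (exact permutation p = 0.328). The other 4 relations, Agrp with Cartpt and with Pmch, had r of 0.16 to 0.34 (exact permutation p of 0.28 to 0.71) and rho of 0.15 to 0.57 (exact permutation p of 0.0444 to 0.702), none with an adjusted p under 0.05.

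**Figure D4:**
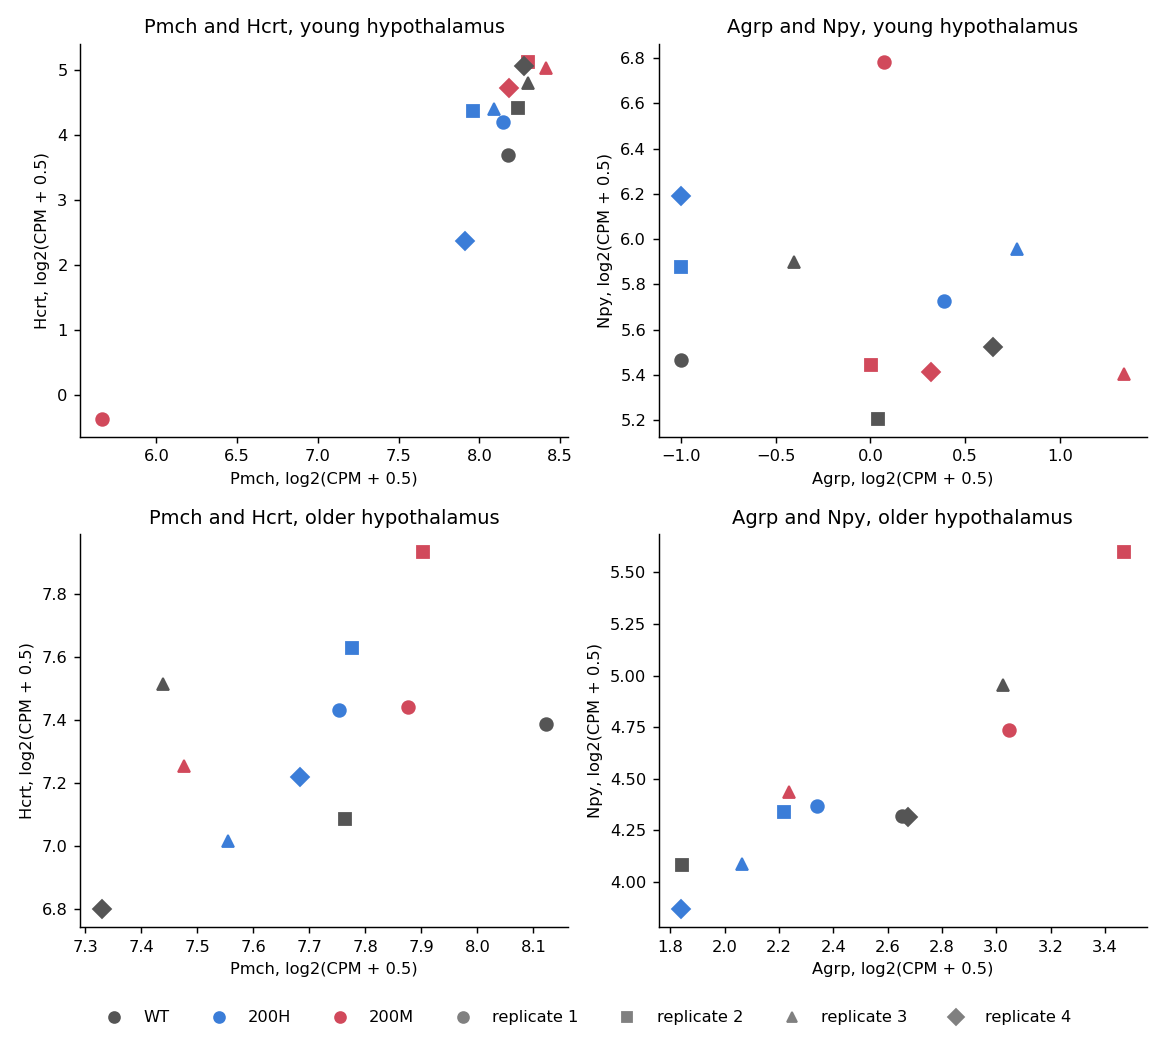
Hcrt against Pmch (left) and Npy against Agrp (right) in each young (top) and older (bottom) hypothalamus library, as log2(CPM + 0.5), coloured by genotype with replicate number as marker shape. Young 200M replicate 1 lies alone at the lower left of the young Pmch and Hcrt plot. Agrp and Npy had r = 0.88 in older libraries after subtraction of genotype means, a relation that did not reach an adjusted p under 0.05.

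The genes whose pattern over the libraries was most like that of each peptide were sought among 10906 genes with a mean of at least 5 CPM in both cohorts, by the smaller of the 2 cohorts' r with genotype means subtracted. For Npy they were Bsx (0.82 in both cohorts), a homeobox gene of arcuate neurons, Cited1 (0.86 in young and 0.81 in older mice), a transcriptional co-regulator, and the member Mc3r (0.88 and 0.79). For Pmch they were Tmem251, Idh3a, a subunit gene of a citric acid cycle enzyme, and Rgs10, a regulator of G protein signalling, with a smaller r of 0.83, 0.80 and 0.78. For Hcrt they were Tecr, an enzyme of fatty acid elongation, Vegfb and Bsg, with 0.84, 0.78 and 0.75. For Cartpt they were Tmem9, Abhd14a and 1700003E16Rik, with 0.86, 0.81 and 0.78, and for Agrp Mical1, Taf6l and Pld2, with 0.74, 0.70 and 0.66. These values are the largest of 10906 and come from 12 and 11 libraries, so they rank genes and are given with no test. The floor of 5 CPM was set for the compared genes alone. Agrp itself had a mean of 0.64 CPM in young mice, so its young r rests on values near the detection limit. Young r of Pmch, Hcrt and Npy included 200M replicate 1 and was not recomputed without it. Leaving it out took their SD from 0.76 to 0.094, from 1.67 to 0.71 and from 0.44 to 0.21.

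Outside hypothalamus 2 receptor genes were measured at appreciable levels, and most peptides were near or below the detection limit. Agrp held 16 to 52 counts and Pmch 5 to 26 counts in the older ovary libraries, and other peptides outside hypothalamus at most 15 counts apart from Npy in older ovary. Lepr stood at 37.3 to 64.1 CPM in young and 11.7 to 32.4 CPM in older ovary, and at 2.64 to 4.45 and 1.93 to 3.41 CPM in pituitary. Mc3r stood at 2.23 to 7.04 CPM in young and 8.14 to 14.8 CPM in older pituitary, levels like those in hypothalamus, and reached at most 0.729 CPM in ovary. Mc4r held at most 10 counts in any library of pituitary or ovary. Pmch had no count in the 11 older pituitary libraries, and Hcrt and Mc3r none in the 12 older ovary libraries.

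**Figure D5:**
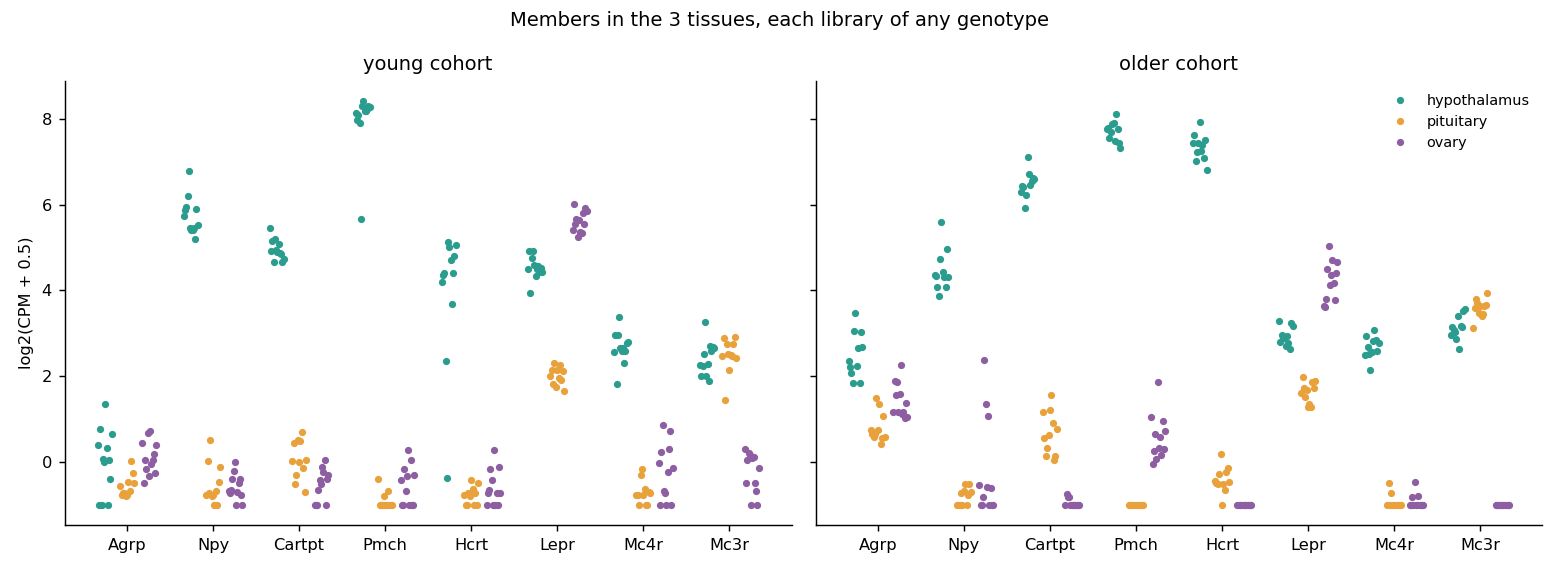
Level of each member as log2(CPM + 0.5) in every library of hypothalamus, pituitary and ovary, all genotypes together, for the young (left) and older (right) cohort. Lepr is highest in ovary, Mc3r is similar in hypothalamus and pituitary, and Agrp in young hypothalamus, at 0 to 2.03 CPM, is in the range of the other tissues.

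No member was called by edgeR in pituitary or ovary. The tests covered 2 members in young pituitary and in older pituitary for 200H against WT, 3 in older pituitary for 200M against WT, 1 in each young ovary comparison and 3 in each older ovary comparison. The shares of all genes called for 200M and 200H against WT were 21.5% and 12.3% in young pituitary, 21.4% and 12.2% in older pituitary, 2.58% and 0.0051% in young ovary and 2.71% and 0% in older ovary. Mc3r in pituitary had log2 fold changes, 200M relative to WT, of -0.34 ± 0.20 (SE) in young and -0.17 ± 0.16 in older mice (edgeR adjusted p = 0.265 and 0.492).

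Lepr in young ovary was the member closest to a call. Its levels were 55.0, 46.0, 59.7 and 57.0 CPM in WT, 41.7, 64.1, 46.3 and 50.4 CPM in 200H, and 37.3, 49.1, 40.6 and 39.8 CPM in 200M, and 3 of 4 200M libraries were below all WT libraries. For 200M relative to WT the log2 fold change was -0.37 ± 0.095 (SE), with an adjusted p of 0.0592 in edgeR and 0.0388 in DESeq2. In older ovary the same comparison gave 0.34 ± 0.25 (SE) (edgeR adjusted p = 0.524), the opposite sign, and this difference between cohorts was not tested.

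Npy in older ovary was highest in 200M. The 4 200M libraries held 43, 17, 2 and 21 counts, or 4.70, 2.04, 0.166 and 1.59 CPM, the WT libraries 0, 2, 0 and 0 counts, and the 200H libraries 2, 0, 0 and 1 counts. In 200M replicates 1, 2 and 4 stood far above all others, and replicate 3 was just above the highest WT library, at 0.160 CPM, and below the highest 200H library, at 0.184 CPM. The ratio of summed scaled counts of 200M to WT was 45.7, with a 95% interval of 12.3 to 384 that covers counting error only. Npy did not pass the filter of the main edgeR test. DESeq2, which applied no such filter, gave an adjusted p of 0.00161, and edgeR without the filter 0.0321. In young ovary Npy held 0 to 5 counts in every library.

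The members with a RefSeq promoter, from 250 bases before to 50 bases after the start, were Npy, Cartpt, Pmch, Hcrt, Lepr and Mc3r, 6 in all, with 2 entries for Lepr. One Lepr entry and that of Mc3r held the E-box CACCTG or its reverse complement CAGGTG, as did 20.2% of 32851 promoters of that length. The matches are shown because this 6-base motif is the G form of CAGGTR, where R is A or G, the consensus that ZEB1 binds. The A form, CAGGTA, was not searched, so entries without a match may still hold a ZEB1 motif. The share of 20.2% likewise covers the G form alone. The motif is in capitals and the gene strand, plus for both genes, is as written. Those of Lepr are at chr4:101717287-101717312 and chr4:101717381-101717406 and that of Mc3r at chr2:172248308-172248333, all on GRCm38.p6.
Lepr, upstream match: gcataccccaCACCTGctgctgtaaa
Lepr, match near the start: gccgcgcagtCACCTGagtggccagt
Mc3r: tacacgagcgCAGGTGagcagtccgg
A match describes the sequence alone. Neither receptor gene was called in any comparison of the 3 tissues by the main test.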

How the data were processed

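The 69 libraries were grouped by tissue, cohort and genotype from the labels. Per the labels and the study's methods, the authors aligned reads with STAR 2.7.1a to mm10 (GRCm38) and deposited raw counts per gene, made with featureCounts for young libraries and older ovary and with HTSeq 0.9.1 for older pituitary and hypothalamus. The deposited tables also hold the authors' normalized values, fold changes and p-values, which were not used. In 1 young pituitary table a column name occurs more than once, so its 3 WT count columns were left out. Counts of 66 library columns found in a second table differed in 0 genes. Symbols were found for 99.54% of 55964 IDs, and positions and exon lengths are from GENCODE M21.

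Each pair of genotypes was tested with edgeR 4.0.16 (R 4.3.3) by the quasi-likelihood F test after filterByExpr and TMM scaling, with Benjamini-Hochberg adjustment over all genes tested. DESeq2 1.42.0, RLE scaling, no filter, all 3 genotypes in 1 fit, the replicate number as a block and the omission of each library were alternatives. CPM were put on a log scale as log2(CPM + 0.5), with 0.1 as an alternative pseudocount. The script was tested on simulated counts. Members and gene lists were chosen with earlier results of these data known. The rule for named genes took the members, Zeb1, genes of the pathway lists past the threshold (none) and the 3 genes most like each peptide. Outside that rule, Ghsr, Trh, Htr2c, Pdyn, Nts, Tacr3 and the myelin genes were chosen after their values were seen, and others are named as parts of marker sums or as overlapping genes. No pair of libraries of a group was a copy, with a chi-square per degree of freedom of 1.89 or more over 99 pairs. Replicates are different mice. Intervals and limits for counts cover counting error only. The summed level of 1 list of cell type markers is not reported here.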

Additional observations from a re-analysis of the deposited data

Results flagged for a closer look

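A library stood apart from the other 3 of its group in 4 of the 65 groups of 4 libraries examined, by a gap test that flags about 1 in 20 groups by chance. Npy in young hypothalamus 200M was at 109.6 CPM in replicate 1 and at 41.8 to 43.0 CPM in the others. Mc4r in the same library was at 9.943 CPM, from 36 counts, beside 5.52 to 5.79 CPM. Lepr in older ovary 200H was at 22.09 CPM in replicate 4 and at 11.7 to 13.5 CPM in the others. Mc3r in young pituitary 200M was at 3.912 CPM in replicate 2 and at 5.06 to 5.20 CPM in the others.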

How the results depend on the processing

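Few counts limited the results for Agrp in young hypothalamus, for some receptors, and for most peptides outside hypothalamus. Agrp averaged 0.64 CPM in young and 5.50 CPM in older hypothalamus, and the part of depth in its low counts was not tested. A member fold change was refitted 775 times over 62 fold changes, and 721 refits kept the sign, 54 turned it and 10 were called. No main value above 0.42 in size turned.

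Members called were 0 under RLE scaling and with 3 genotypes in 1 fit in all comparisons that could be fitted. Without the filter on low counts, 2 members (Npy and Hcrt) were called in older hypothalamus 200M against WT and 3 (Agrp, Cartpt and Npy) in 200M against 200H, where DESeq2 called 1 (Npy). In young ovary 200M against WT DESeq2 and the unfiltered fit each called 1 (Lepr), and in older ovary 1 each (Npy), and leaving out 1 library gave 0 to 1 in both. The lone call came without WT replicate 2 or 200M replicate 2 in young ovary and without 200M replicate 3 in older ovary. In older ovary it was Npy, whose counts lay almost all in 200M, so it passed the filter only through that group. That call is therefore no support for a difference. Without WT replicates 1, 2, 3 and 4 in turn, Npy was tested and not called (edgeR adjusted p = 0.0961, 0.190, 0.158 and 0.139). The cause of the other changes in calls was not tested.

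Over all genes edgeR called 3, 3, 0, 1, 0 and 0 in the 6 hypothalamus comparisons and 26 in the interaction. DESeq2 called 0, 1, 0, 619, 5, 668 and 345, and edgeR without the filter 30, 10, 13, 1079, 97, 1325 and 239, in the same order.

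No pairing by replicate number was seen in hypothalamus. The correlation of deviations between same-numbered libraries ran from -0.13 to 0.17 in young and from -0.21 to 0.27 in older mice. Between differently numbered libraries it ran from -0.17 to 0.23 and from -0.25 to 0.28. These values cannot show whether same-numbered mice were littermates or were processed together. With the replicate block 0 members were called in the 13 comparisons that could be fitted, and all genes called numbered 11 in young and 2 in older hypothalamus 200M against WT, 1 in older 200M against 200H and 4 in the interaction. In young pituitary no block could be fitted because 1 WT library has no usable number. The block turned the sign of Mc4r in young hypothalamus 200H against WT (-0.00091), Pmch in older 200M (-0.016) and 200H (0.025) against WT, and Lepr in older pituitary 200H against WT (0.0093). Pmch in older 200H against WT also turned with RLE scaling (0.0014) and with 3 genotypes in 1 fit (0.0020).

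Leaving out 1 library turned the sign of these log2 fold changes, none of them called. For young hypothalamus 200M against WT the values ran from -0.13 to 0.49 for Npy, -0.46 to 0.048 for Pmch, -0.26 to 0.37 for Hcrt, -0.0048 to 0.31 for Mc4r, -0.0076 to 0.19 for Lepr. For young hypothalamus 200H against WT the values ran from -0.12 to 0.21 for Mc4r, -0.047 to 0.26 for Lepr. For young hypothalamus 200M against 200H the values ran from -0.15 to 0.12 for Cartpt, -0.53 to 0.085 for Npy, -0.25 to 0.27 for Pmch, -0.24 to 0.39 for Mc3r, -0.017 to 0.36 for Mc4r, -0.14 to 0.17 for Lepr. For older hypothalamus 200M against WT the values ran from -0.062 to 0.39 for Cartpt, -0.027 to 0.24 for Pmch. For older hypothalamus 200H against WT the values ran from -0.10 to 0.17 for Pmch, -0.10 to 0.12 for Lepr. For older hypothalamus 200M against 200H the values ran from -0.0073 to 0.21 for Pmch, -0.32 to 0.13 for Mc3r, -0.31 to 0.048 for Mc4r. For young pituitary 200H against WT the values ran from -0.43 to 0.0012 for Mc3r. For older pituitary 200H against WT the values ran from -0.19 to 0.020 for Mc3r, -0.14 to 0.076 for Lepr. For young ovary 200H against WT the values ran from -0.16 to 0.039 for Lepr. For older ovary 200M against WT the values ran from -0.36 to 0.66 for Pmch. For older ovary 200H against WT the values ran from -0.38 to 0.20 for Pmch.

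The correlation of Pmch and Hcrt in young mice was 0.72 without the 2 farthest libraries and 0.63 to 0.98 with 1 left out, and in older mice 0.35 to 0.81. That of Agrp and Npy in older mice was 0.91 without subtraction of genotype means (adjusted p = 0.00463) and 0.83 to 0.93 with 1 left out. In older mice Agrp with Cartpt ran from -0.093 to 0.59 and Agrp with Pmch from -0.21 to 0.36, and the latter was -0.23 without the 2 farthest libraries. The spread without young 200M replicate 1 or older 200M replicate 2 was chosen after seeing the data. With a pseudocount of 0.1 the SD of young Agrp was 1.53.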
